A study of Homo sapiens with 6 samples.

Results

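MFSD2A, MIDEAS, SNX11 and FAM117B are 4 of the 18417 genes measured with a probe set of a single gene symbol, and each had exactly 1 such probe set. They were chosen by their measured values: 100 nM of the Bayer compound that the study tested lowered all 4 in hypoxic cells, while hypoxia alone raised the first 3 by less than 2-fold, and FAM117B was taken because it was among the 30 largest decreases but not among the genes that the study displayed. The study describes this compound as an inhibitor of gene activation under hypoxia that acts on mitochondrial complex I. It was given to H460, a human large cell lung cancer line, for 16 h in medium with little serum. There were 6 arrays, 1 per condition: normoxia with DMSO (the solvent), normoxia with 100 nM, hypoxia (1% pO2) with DMSO, hypoxia with 100 nM, and 2 hypoxic arrays at lower concentrations. Of the last 2, one has the title 10 nM but the source name 1 nM, and the other the title 1 nM but the source name 10 nM. They are called here the array titled 10 nM and the array titled 1 nM, and no order of dose was read from them. Values are linear intensities of the array, and a log2 difference of 1 is a 2-fold change.

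Under low oxygen the subunit HIF-1α escapes hydroxylation and degradation, and the HIF-1 dimer switches on genes of glycolysis, angiogenesis and pH control through short DNA elements with the core ACGTG or GCGTG. The 4 genes are not from 1 pathway. MFSD2A encodes a sodium-dependent transporter of lysophosphatidylcholine, best known for carrying docosahexaenoic acid across the blood-brain barrier. MIDEAS encodes the scaffold of the MiDAC complex, in which the histone deacetylases HDAC1 and HDAC2 work together with DNTTIP1. SNX11 encodes a sorting nexin, a protein that binds phosphoinositides of endosomal membranes through its PX domain. FAM117B encodes a little characterised protein related to FAM117A and GLCCI1.

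The promoters are shown because the core of the HIF element can be read in them directly. For each gene this is the stretch of 250 bases before the first start site listed by RefSeq (GRCh38.p14), 5′ to 3′ on the strand of the gene, with each ACGTG or GCGTG on either strand in capitals.
MFSD2A, chr1:39954895-39955144, plus strand: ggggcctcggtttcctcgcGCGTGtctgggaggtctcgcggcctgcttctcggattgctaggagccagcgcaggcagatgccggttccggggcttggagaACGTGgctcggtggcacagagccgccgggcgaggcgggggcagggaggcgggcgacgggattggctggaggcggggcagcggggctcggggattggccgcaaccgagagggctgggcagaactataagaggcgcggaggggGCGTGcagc
MIDEAS, chr14:73787209-73787458, minus strand: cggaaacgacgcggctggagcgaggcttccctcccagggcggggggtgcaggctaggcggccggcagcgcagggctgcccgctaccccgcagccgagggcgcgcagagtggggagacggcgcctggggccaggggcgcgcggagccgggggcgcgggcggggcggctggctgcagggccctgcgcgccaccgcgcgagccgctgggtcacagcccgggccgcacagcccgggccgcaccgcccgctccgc
SNX11, chr17:48107324-48107573, plus strand: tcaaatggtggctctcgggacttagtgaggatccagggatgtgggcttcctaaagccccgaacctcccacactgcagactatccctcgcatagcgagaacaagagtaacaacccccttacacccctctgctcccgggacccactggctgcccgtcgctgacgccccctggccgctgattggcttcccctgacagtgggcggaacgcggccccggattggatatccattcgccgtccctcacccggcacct
FAM117B, chr2:202634719-202634968, plus strand: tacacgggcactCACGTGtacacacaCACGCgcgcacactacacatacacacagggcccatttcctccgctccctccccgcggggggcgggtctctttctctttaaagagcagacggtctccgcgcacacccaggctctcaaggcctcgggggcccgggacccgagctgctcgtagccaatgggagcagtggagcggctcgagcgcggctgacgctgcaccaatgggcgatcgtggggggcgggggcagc
In the MFSD2A promoter ACGTG lay 150 to 146 bases before the start site, and GCGTG lay 231 to 227 and 9 to 5 bases before it. In the FAM117B promoter the palindrome CACGTG, which holds ACGTG on both strands, lay 238 to 233 bases before the start site. A GCGTG on its opposite strand followed at 224 to 220. The windows shown for MIDEAS and SNX11 held neither core. Each of these genes has another start site in the table, and the window before that one held 1 GCGTG in both genes, at 204 to 200 bases for MIDEAS and at 192 to 188 bases for SNX11. Of the 14239 measured genes with a promoter in the table, 51.1% held ACGTG or GCGTG on either strand, 21.1% held ACGTG and 7.86% held CACGTG, counted in the first listed window of each gene. Over all 27305 promoters the shares were 43.1%, 18.7% and 6.49%. These matches describe letters and say nothing of binding, which was not measured here.

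On the arrays MFSD2A was at 510 in normoxia with DMSO, 410 in normoxia with 100 nM, 697 in hypoxia with DMSO, 681 on the array titled 10 nM, 550 on the array titled 1 nM and 318 in hypoxia with 100 nM. Its lowest value was thus the hypoxic array with 100 nM, below both normoxic arrays. MIDEAS was at 936 in normoxia with DMSO, 490 in normoxia with 100 nM, 1234 in hypoxia with DMSO, 1179 on the array titled 10 nM, 809 on the array titled 1 nM and 578 in hypoxia with 100 nM. SNX11 was at 393, 210, 488, 407, 274 and 230 on the same arrays in the same order. Both genes were lowest on the 2 arrays with 100 nM, with and without oxygen restriction, and normoxia with DMSO lay above the array titled 1 nM. FAM117B was at 509, 472, 1703, 1697, 744 and 541 in that order. It stood apart from the others in that 2 arrays, the one titled 10 nM and the hypoxic DMSO array, were more than 2-fold above each of the remaining 4.

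**Figure D1:**
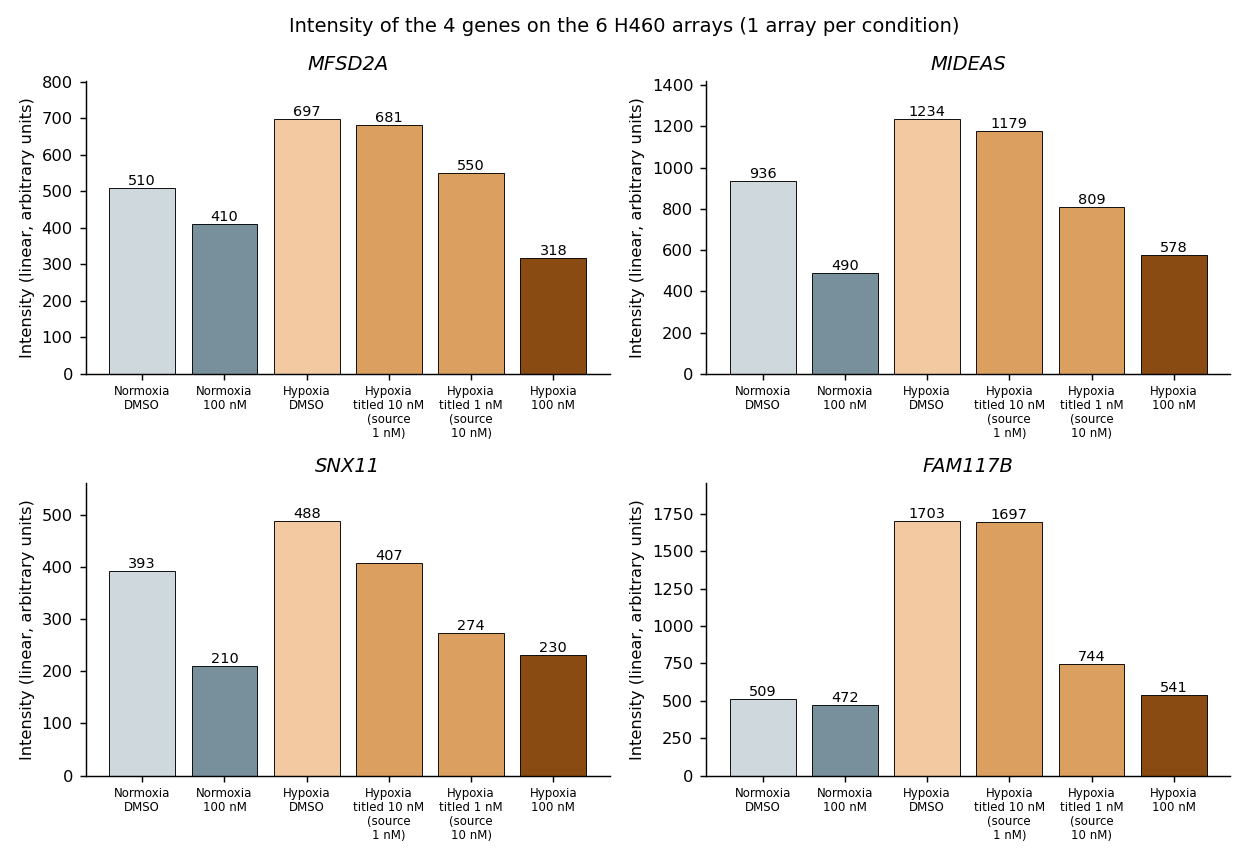
Intensity (linear, arbitrary units) of MFSD2A, MIDEAS, SNX11 and FAM117B on the 6 H460 arrays, 1 array per condition and so without error bars. MIDEAS and SNX11 were low on both arrays with 100 nM, MFSD2A was lowest in hypoxia with 100 nM, and FAM117B was high on 2 hypoxic arrays only.

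With 1 array per condition there was no test and no p-value, and a size rule of 2-fold was used instead. As a yardstick, the most similar pair of arrays was normoxia and hypoxia, both with 100 nM, in which 95% of the 11307 genes brighter than the median probe set differed by less than 1.28-fold. All 4 genes belong to those brighter genes. Of the 5 steps between neighbouring arrays in the order of intensity, MFSD2A had 1 above 1.28-fold, from normoxia with 100 nM down to hypoxia with 100 nM (1.29-fold). MIDEAS also had 1, from the array titled 1 nM to hypoxia with 100 nM (1.40-fold), and SNX11 had 1, from normoxia with DMSO to the array titled 1 nM (1.43-fold). FAM117B had 2, from the array titled 10 nM to the array titled 1 nM (2.28-fold) and from there to hypoxia with 100 nM (1.38-fold). The other neighbours did not differ beyond that spread. Other pairs of arrays had a wider spread of the brighter genes. It was 1.90-fold between normoxia with DMSO and the array titled 1 nM, and the SNX11 step lay within it. Between the array titled 1 nM and hypoxia with 100 nM it was 1.38-fold. There the FAM117B step was not beyond it and the MIDEAS step was just beyond it. Between the 2 arrays at lower concentrations it was 1.51-fold, and the FAM117B step was beyond it. From the highest to the lowest array the range was 2.19-fold for MFSD2A, 2.52-fold for MIDEAS, 2.32-fold for SNX11 and 3.61-fold for FAM117B.

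The values that chose the genes are given as a description. In hypoxia 100 nM lowered MFSD2A by a log2 difference of -1.13 (54.4% lower), MIDEAS by -1.09 (53.2% lower), SNX11 by -1.08 (52.8% lower) and FAM117B by -1.65 (68.2% lower). All 4 passed 2-fold, as did 1.01% of all genes in that direction, and nothing is read from this count because the choice fixed it. SNX11 lay close to the threshold. It came to -0.82 when the array titled 10 nM stood in for hypoxia with DMSO, so that 3 of the 4 passed 2-fold. The share of all genes was not counted for that comparator, and nothing is read from that count. SNX11 also came just short of 2-fold when arrays were centred on their medians, and with 32 added before log2 it was at -0.99. Among the decreases of all genes the ranks were 117 for MFSD2A, 139 for MIDEAS and 143 for SNX11. FAM117B, at rank 30, lay between ANGPTL4 (-1.70) and SNAI2 (-1.65). In bulk RNA a lower value in every cell and the loss of the transcript from some of the cells cannot be told apart.

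Between the DMSO arrays the hypoxic one was higher for MFSD2A by 0.45 on the log2 scale (1.37-fold), for MIDEAS by 0.40 (1.32-fold) and for SNX11 by 0.31 (1.24-fold). For FAM117B it was higher by 1.74 (3.34-fold), so a description of all 4 as genes with little hypoxic induction goes against its values and holds for the other 3. Past 2-fold higher were FAM117B and 1.67% of all genes, and in the other direction 3.67% of all genes passed 2-fold. When the array titled 10 nM stood in for the hypoxic DMSO array, the difference from normoxia with DMSO was 0.42 for MFSD2A, 0.33 for MIDEAS, 0.05 for SNX11 and 1.74 for FAM117B. For SNX11 the difference was thus near 0 on that array. Of the 186 genes at least 2-fold lower with 100 nM in hypoxia, 128 were at least 2-fold higher in hypoxia and 58 were not, of which 24 were brighter genes. Just under that border lay LBH (1.99-fold higher in hypoxia, -1.12 with 100 nM) and EGLN3 (1.99-fold, -1.01). Just above it lay the dim genes SLC2A12 (-1.04 with 100 nM) and FRG2C (-1.32).

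The normoxic array with 100 nM is not part of the rule that chose the genes, although its DMSO counterpart is. In normoxia the log2 difference of 100 nM against DMSO was -0.93 for MIDEAS (47.6% lower) and -0.90 for SNX11 (46.4% lower). It was -0.31 for MFSD2A (19.5% lower) and -0.11 for FAM117B (7.34% lower). None of the 4 reached 2-fold, against 0.956% of all genes. Ordered by their decrease among the 11307 brighter genes, MIDEAS had rank 175 and SNX11 rank 191, while MFSD2A had rank 1942 and FAM117B rank 4175. In normoxia the differences of MFSD2A (1.24-fold) and FAM117B (1.08-fold) were within the spread of 1.28-fold. Those of MIDEAS (1.91-fold) and SNX11 (1.87-fold) were outside it, and outside the wider spread of 1.60-fold between these 2 normoxic arrays. The normoxic DMSO array enters both this comparison and the small hypoxic rise by which MFSD2A, MIDEAS and SNX11 were chosen, and a high value on it favours both. Of the 58 genes lowered by 100 nM in hypoxia without a 2-fold rise in hypoxia, 3 were likewise lowered at least 2-fold in normoxia. At 1.5-fold, a size that MIDEAS and SNX11 reached, 11 of the 24 brighter genes among the 58 were lower in normoxia. So were 21 of the 103 brighter genes that hypoxia had raised by at least 2-fold. The share of all genes lower by 1.5-fold was not counted. The normoxic DMSO array also sorted these genes by their hypoxic rise, and a high value on it favours the count among the 58. The gap between these counts is thus in part built in, and nothing is read from it.

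The difference between the effect of 100 nM in hypoxia and in normoxia uses the chosen contrast and is a description. It was -0.16 on the log2 scale for MIDEAS and -0.18 for SNX11, and 39.7% and 37.8% of all genes had a difference at least as low. For MFSD2A it was -0.82, with 3.91% of all genes at least as low, and for FAM117B -1.54, with 0.288% of all genes at least as low. Seen from the side of oxygen, with 100 nM present the hypoxic array lay 0.24 above the normoxic one for MIDEAS, 0.13 above for SNX11 and 0.20 above for FAM117B, and for MFSD2A it lay 0.37 below (a log2 difference of -0.37). None of the 4 was at least 2-fold higher there, and 0.147% of all genes were. Hypoxia with 100 nM also lay below normoxia with DMSO for MFSD2A (-0.68), MIDEAS (-0.70) and SNX11 (-0.77), whereas for FAM117B it lay 0.09 above. All of these comparisons share arrays with those that chose the genes.

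**Figure D2:**
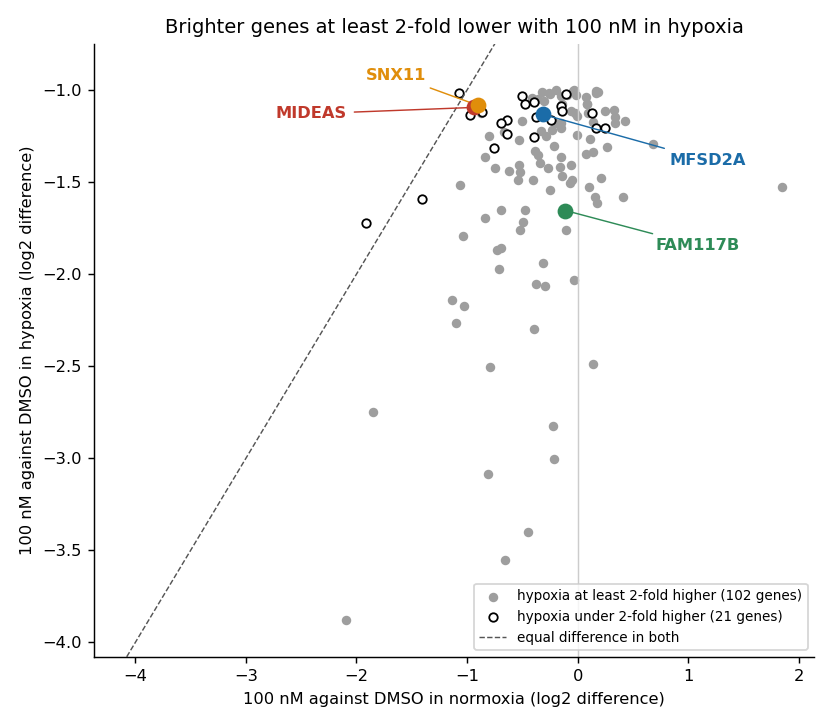
Log2 difference of 100 nM against DMSO in hypoxia (vertical axis) against that in normoxia (horizontal axis) for the brighter genes that 100 nM lowered by at least 2-fold in hypoxia, filled grey where hypoxia raised them by at least 2-fold and open where it did not. MIDEAS (-0.93 in normoxia) and SNX11 (-0.90) lie close to the dashed line of equal difference, and MFSD2A (-0.31) and FAM117B (-0.11) lie nearer to no change in normoxia.

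Of the comparisons with the 2 hypoxic arrays at lower concentrations, those against hypoxia with DMSO share an array with the choice. On the array titled 10 nM the 4 genes were close to hypoxia with DMSO, with log2 differences of -0.03 for MFSD2A, -0.07 for MIDEAS, -0.26 for SNX11 and -0.01 for FAM117B. The sign for MFSD2A, MIDEAS and FAM117B turned when each array was centred on its median, to at most 0.09. On the array titled 1 nM the differences from hypoxia with DMSO were -0.34 for MFSD2A, -0.61 for MIDEAS, -0.83 for SNX11 and -1.19 for FAM117B. Past 2-fold lower there was FAM117B (2.29-fold), against 0.358% of all genes, and on the array titled 10 nM there was none of the 4, against 0.206% of all genes. In hypoxia with 100 nM 0.766% of all genes were at least 2-fold higher than with DMSO. That none of the 4 took this direction was fixed by their choice.

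The 2 arrays at lower concentrations and normoxia with 100 nM are not named in the rule that chose the genes. The genes were nevertheless picked with earlier results of all 6 arrays known, so the differences among these 3 arrays are also given as a description. The array titled 1 nM lay below the array titled 10 nM in all 4 genes. FAM117B went from 1697 to 744, a log2 difference of -1.19 (2.28-fold), and MIDEAS from 1179 to 809 (-0.54). SNX11 went from 407 to 274 (-0.57) and MFSD2A from 681 to 550 (-0.31). FAM117B was the member past 2-fold, against 0.429% of all genes, and 0.239% of the brighter genes were at least as low as FAM117B. For SNX11, MIDEAS and MFSD2A that share was 4.27%, 4.93% and 16.3%. A lower value on the array titled 1 nM was common, since 59.3% of the brighter genes had one.

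The array titled 10 nM, hypoxic, lay above normoxia with 100 nM in all 4 genes, by 1.85 on the log2 scale for FAM117B (3.59-fold), 1.27 for MIDEAS (2.40-fold), 0.95 for SNX11 (1.93-fold) and 0.73 for MFSD2A (1.66-fold). Oxygen and concentration both differ between these arrays and cannot be told apart. Past 2-fold were FAM117B and MIDEAS, against 1.47% of all genes. Of the brighter genes 0.513% were at least as high as FAM117B, 1.12% as MIDEAS, 2.31% as SNX11 and 4.10% as MFSD2A. The array titled 1 nM lay above normoxia with 100 nM by 0.72 for MIDEAS, 0.66 for FAM117B, 0.42 for MFSD2A and 0.38 for SNX11. None of these reached 2-fold, against 0.462% of all genes.

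**Figure D3:**
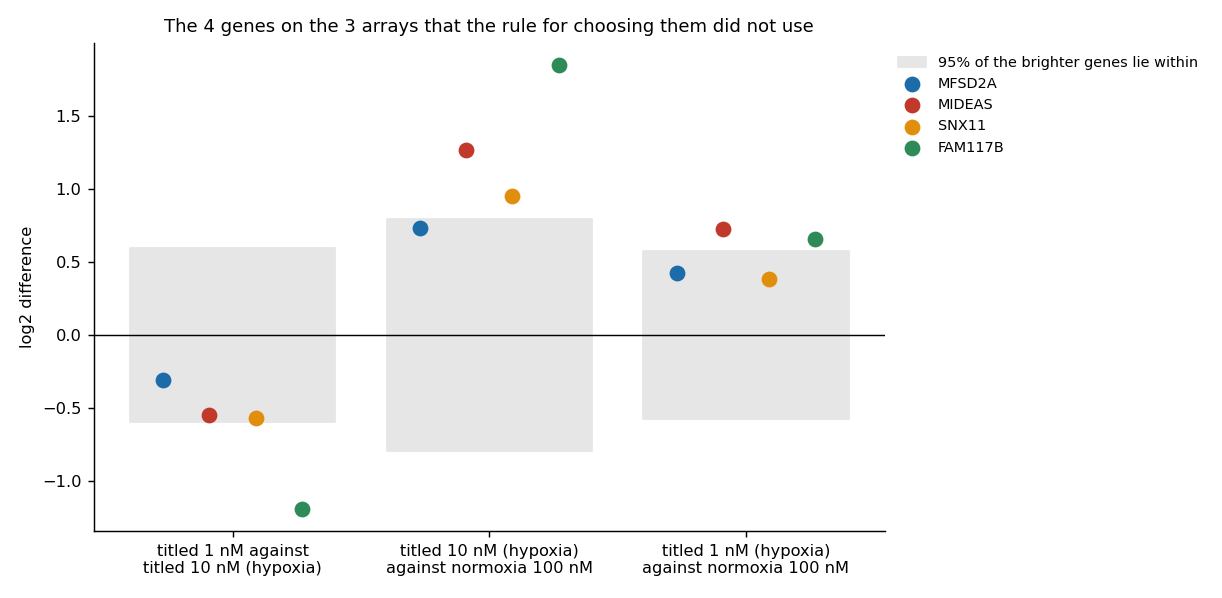
Log2 differences of the 4 genes among the 3 arrays that the rule for choosing them did not use, with grey boxes that hold 95% of the brighter genes in each comparison. FAM117B lies outside the box in all 3 comparisons (-1.19, 1.85 and 0.66), MIDEAS in 2 of them (1.27 and 0.72), SNX11 in 1 (0.95) and MFSD2A in none.

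The genes whose profile over the 6 arrays was most like that of each member were found by distance. This was the root mean square distance of log2 values, each centred on its own mean. The search covered 1713 genes whose mean was at or above that of the median gene and whose log2 range was at least 0.8. These distances describe 6 arrays that share cells and processing. They include the 3 arrays on which the members were chosen, so likeness between members is in part fixed by the choice. Nearest to FAM117B were RYBP, a subunit of variant polycomb complexes (distance 0.0996), the endocytic receptor LRP1 (0.123) and P4HA2, a collagen prolyl hydroxylase subunit (0.127). All 3 were high on the same 2 hypoxic arrays as FAM117B, RYBP at 1890 and 1891 against 596 to 880 on the other 4. Nearest to MIDEAS were FBXO42, an F-box protein (0.106), CACNB3, a calcium channel subunit (0.120), and PTCH1, the hedgehog receptor (0.125). CACNB3 (0.114) and PTCH1 (0.122) were also the nearest to SNX11, followed by the tight junction protein CLDN7 (0.123). PTCH1 was at 560 and 286 in normoxia with DMSO and with 100 nM, and at 716 and 325 in hypoxia with the same additions. Nearest to MFSD2A were DHRS13 (0.144), a dehydrogenase family member, CRYBB2P1 (0.151), a crystallin pseudogene whose probes may also take up transcripts of its parent gene, and the Notch ligand JAG2 (0.156). Between members, MIDEAS and SNX11 were 0.130 apart, and SNX11 was 4th in the order of likeness to MIDEAS. MFSD2A was 0.223 from MIDEAS and 0.244 from SNX11, and FAM117B was 0.463 to 0.534 from the other members.

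**Figure D4:**
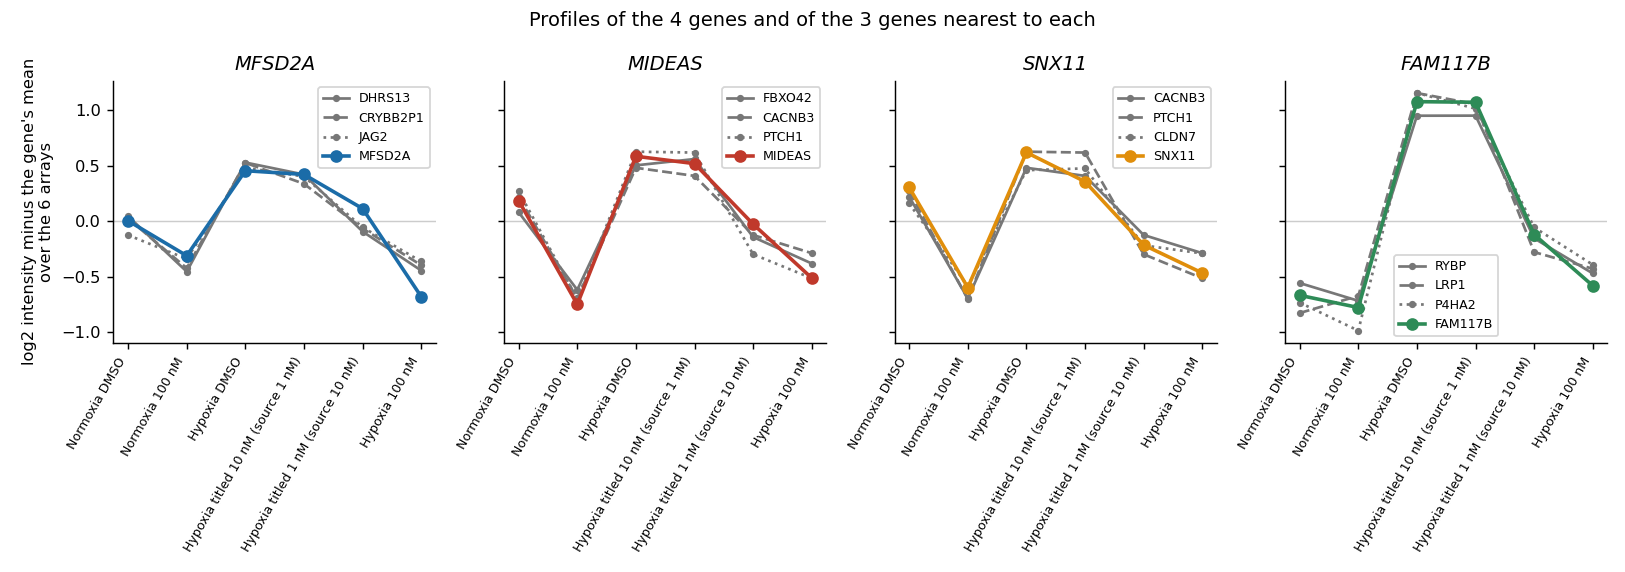
Log2 intensity minus the mean of the gene over the 6 arrays, for each member (coloured) and its 3 nearest genes (grey); lines join the points of a gene and do not stand for an order of dose. MIDEAS and SNX11 dip on both arrays with 100 nM, and FAM117B with RYBP, LRP1 and P4HA2 is high on 2 hypoxic arrays.

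The relatives of each member were followed in lists of genes, counted without the member. For MFSD2A these were 23 measured genes of lysolipid and fatty acid uptake. With 100 nM in hypoxia none of them was at least 2-fold lower or higher, and their median log2 difference was -0.04, the same as that of all genes to 2 decimals. The closest relative, MFSD2B, a sphingosine-1-phosphate exporter of red cells and platelets, was dim on all arrays, at 54.7 in hypoxia with DMSO and 27.5 with 100 nM (-0.99). SLC27A4, a fatty acid transport protein, moved the other way from MFSD2A: its DMSO arrays were at 1188 under normoxia and 489 under hypoxia (-1.28), and with 100 nM the hypoxic array was at 833 (0.77 higher). MBOAT1, a lysophospholipid acyltransferase, was 0.59 higher with 100 nM in hypoxia, and SLC27A6, dim, had a difference of -0.58. Between the DMSO arrays hypoxia took 2 of the 23 past 2-fold lower, SLC27A4 and SLC27A2 (-1.32), against 3.67% of all genes.

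For MIDEAS the list held 32 other measured genes of the class I histone deacetylase complexes. With 100 nM in hypoxia 1 of the 32 was at least 2-fold lower, the CoREST family scaffold RCOR2, against 1.01% of all genes. None was 2-fold higher, and the median was 0.01. RCOR2 was at 203 and 130 in normoxia with DMSO and with 100 nM, and under hypoxia at 340 and 144 (-1.24). Of the partners of MIDEAS in MiDAC, DNTTIP1 was at 3952 in hypoxia with DMSO and 2765 with 100 nM (-0.52), and HDAC1 (0.22) and HDAC2 (0.46) were higher. In normoxia DNTTIP1 was at 2477 with DMSO and 2266 with 100 nM. The MIDEAS relatives TRERF1 (-0.30) and ZNF541 (-0.12, dim) did not reach 2-fold. SAP30, a subunit of the SIN3 complex (-0.97), and HDAC3 (-0.70) had larger differences. In normoxia 100 nM took 2 genes of this list past 2-fold lower, TBL1X (-1.24) and RCOR3 (-1.12), against 0.956% of all genes, and hypoxia took TBL1X, a subunit of the NCoR and SMRT complexes, to -1.83, the 1 gene of the 32 past 2-fold lower there, against 3.67% of all genes.

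For SNX11 there were 28 other measured sorting nexins. With 100 nM in hypoxia 1 of the 28, SNX33, was at least 2-fold lower, against 1.01% of all genes. None was 2-fold higher, and the median was 0.02. SNX33, whose SH3 domain links it to endocytosis, was at 402 in normoxia with DMSO, 453 in normoxia with 100 nM, 1962 in hypoxia with DMSO, 1885 on the array titled 10 nM, 1035 on the array titled 1 nM and 640 in hypoxia with 100 nM (-1.62). Hypoxia raised it by 2.29 on the log2 scale, a pattern unlike that of SNX11 and high on the same 2 arrays as FAM117B. SNX10, the closest relative of SNX11, was at 609 in hypoxia with DMSO and 599 with 100 nM (-0.02). The other largest differences of this list were SNX32 (-0.54, dim), SNX7 (0.53) and SNX24 (0.38).

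The relatives of FAM117B were FAM117A and GLCCI1. The DMSO arrays of FAM117A were at 144 under normoxia and 267 under hypoxia (0.89 higher), and hypoxia with 100 nM was at 187 (-0.51). GLCCI1, named for its induction by glucocorticoids, was at 880, 1153 and 897 on the same arrays (0.39 higher in hypoxia, -0.36 with 100 nM). Both went in the direction of FAM117B by less than 2-fold.

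**Figure D5:**
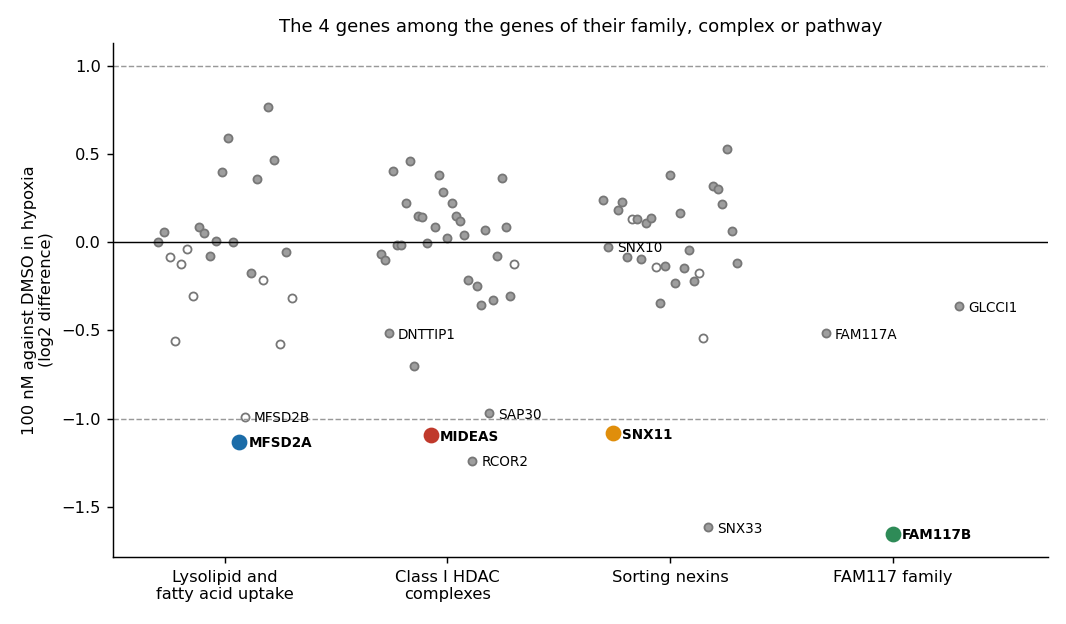
Log2 difference of 100 nM against DMSO in hypoxia for each member and the genes of its list, with dashed lines at 2-fold and open circles for genes dimmer than the median probe set. Beside the members, RCOR2 (-1.24) and SNX33 (-1.62) are the listed genes past 2-fold lower, and none is past 2-fold higher.

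To describe the arrays, 11 measured HIF target genes were listed with earlier results of these data known, so they do not test the arrays. CA9 had no probe set of a single gene symbol. The median log2 difference of the 11 was 2.63 in hypoxia against normoxia, where 7 passed 2-fold higher, against 1.67% of all genes. With 100 nM in hypoxia the median was -1.70, and 9 of the 11 passed 2-fold lower, against 1.01% of all genes. VEGFA (0.58 in hypoxia, -1.59 with 100 nM) and EGLN3 (0.995 and -1.01) rose by less than 2-fold and were lowered past 2-fold. MFSD2A, MIDEAS and SNX11 were chosen by that same pattern. BNIP3 and PDK1 stayed under 2-fold in both comparisons. On the array titled 10 nM none of the 11 was at least 2-fold lower than in hypoxia with DMSO, against 0.206% of all genes. On the array titled 1 nM 2 were, against 0.358% of all genes. In normoxia 100 nM took 3 of the 11 past 2-fold lower, against 0.956% of all genes. These were HILPDA (-2.10), VEGFA (-1.41) and EGLN3 (-1.07). By real-time PCR the study also saw a weak lowering of HIF-1 target genes in normoxia. None of 7 reference genes passed 2-fold in any of hypoxia against normoxia and 100 nM against DMSO in hypoxia or in normoxia. Of the epithelial markers KRT8, KRT18 and KRT19 were above the median probe set, and EPCAM and CDH1 were below it. Of 9 markers of leukocytes, endothelium and fibroblasts CD14, COL1A1 and COL1A2 were above it, the endothelial markers were not, and none passed 2-fold with 100 nM in hypoxia.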

How the data were processed

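RNA of H460 cells was measured on Affymetrix Human Gene 1.0 ST arrays, 1 per condition, and precision is limited by that number. The authors deposited intensity values on a linear scale. The methods name background correction with MAS 5.0 and Expressionist software, whereas RMA, with no version, is the tool in the submitters' processing notes. The amount of RNA and, in the results text, the array type are also given differently. No source used here gives the genome build or annotation behind the probe sets. Array medians lay between 128 and 140.

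Values were turned into log2 with neither pseudocount nor filter. Of 33297 probe sets, 19460 had 1 symbol, 1754 several and 12083 were not listed in the platform annotation. For 19429 the symbol was current in RefSeq. The probe set with the highest mean log2 intensity stood for each of 18417 genes, 769 of which had more than 1. Genes whose mean passed that of the median probe set were called brighter.

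The 4 genes and the gene lists were chosen with earlier results of these data known. Beside the members, genes were named by likeness of profile (3 per member), as close relatives, or as the 4 largest differences of a list at 100 nM in hypoxia; border genes and genes of a list past 2-fold in other comparisons were named after their values were seen. Promoters came from a RefSeq table (GRCh38.p14). Of the steps, only the 2-fold size rule was tested on simulated data. The simulated decreases were larger than those of MFSD2A, MIDEAS and SNX11 with 100 nM in hypoxia. The simulated noise was normal with a fixed SD that was not estimated from these arrays, so the test says little about them. Alternatives were quantile normalization, centring, the mean of probe sets, an offset of 32, a 1.5-fold and a 3-fold threshold, brighter genes only, and other arrays as comparators. Python 3.11.15, numpy 2.4.6, pandas 2.3.3 and matplotlib 3.10.9 were used.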

Additional observations from a re-analysis of the deposited data

Results flagged for a closer look

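MFSD2A was picked out because hypoxia and normoxia differed in opposite directions with and without the compound. Its log2 difference of hypoxia against normoxia was 0.45 with DMSO and -0.37 with 100 nM, each from 1 array per condition. The value with 100 nM (1.29-fold) was just past the 1.28-fold that held 95% of the brighter genes on those same arrays. The difference between the 2 values was not tested, and it uses arrays that chose the gene. With 1 array per condition no sample could be set against others of its group.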

How the results depend on the processing

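Of the 156 values of the 4 genes under an alternative, 151 moved by less than 0.183 and 5 moved further. That limit is the SD of log2 differences of brighter genes in the most similar pair of arrays. Of the 151, 36 came from the mean of probe sets. That setting cannot move a gene with 1 probe set, so these 36 say nothing of stability. None of the called values changed sign. With normoxia and 100 nM as the comparator for hypoxia, the median of the 4 genes rose from 0.42 to 1.27, and 3 members, not 1, were past 2-fold higher. The share of all genes was not counted for that comparator, so nothing is read from this count. When the array titled 10 nM replaced the hypoxic DMSO array, SNX11 was at -0.82 with 100 nM and at 0.05 in hypoxia. Counts of members also moved with the threshold. The share of all genes was counted at neither 1.5-fold nor 3-fold, so these counts only describe the members. At 3-fold 1 member was lower with 100 nM in hypoxia, 0 were lower on the array titled 1 nM against hypoxia with DMSO, 0 were lower on it against the array titled 10 nM, and 1 was higher on the array titled 10 nM than in normoxia with 100 nM. At 1.5-fold 2 were lower with 100 nM in normoxia, 3 were lower on the array titled 1 nM against hypoxia with DMSO, and 4 on the array titled 10 nM and 2 on the array titled 1 nM were higher than in normoxia with 100 nM. Centring each array on its median moved the median of all genes by -0.11 on the log2 scale in hypoxia against normoxia and in the comparisons of the array titled 1 nM with the array titled 10 nM and with normoxia at 100 nM. No paired analysis was possible because each condition has 1 array, and for the same reason no replicate could be left out.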
